A study of Mus musculus with 4 samples.

Results

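The heat shock chaperone genes are 9 genes whose protein products keep other proteins folded: Hspa1a, Hspa1b, Hspb1, Dnajb1, Hsph1, Hspa8, Hsp90aa1, Hspe1 and Hspd1. They were taken by name from the 31053 gene rows of the data, and all 9 had a single row in both libraries. The data came from 2 joint libraries of RNA and open chromatin, 1 per genotype, made from the nuclei of lung cells of male mice 8 days after bleomycin injury. The cells had been sorted for GFP as alveolar type 2 (AT2) cells, the surfactant-secreting stem cells of the alveolus. Both genotypes carried SftpcCreERT2, a tamoxifen-dependent Cre driven by an AT2 gene, and Rosa26mTmG, a reporter that turns to GFP after Cre has acted. The library labelled CKO carried IPF/F in addition, in a series whose title concerns the prostaglandin I2 receptor. The labels do not say how many mice went into a library, and no wild-type, uninjured or Cre-free library was used here.

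When unfolded proteins accumulate, the transcription factor Hsf1 forms trimers and binds heat shock elements, which are inverted repeats of the unit GAA, and transcription of chaperone genes follows. Hsp70 proteins (Hspa1a, Hspa1b and the constitutive Hspa8) bind exposed stretches of polypeptide. They work with J proteins such as Dnajb1, which deliver the client and start ATP hydrolysis, and with exchange factors such as Hsph1. Hspb1 is a small heat shock protein that holds unfolded clients without ATP, and Hsp90aa1 is the inducible cytosolic Hsp90. Hspd1 with its lid Hspe1 forms the folding chamber of the mitochondrial matrix. Below, the 5 inducible genes or members are Hspa1a, Hspa1b, Hspb1, Dnajb1 and Hsph1. Hsp90aa1, abundant also in cells without heat stress, was grouped with the constitutive Hspa8 and is not among them.

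The promoters of the members differed in the heat shock elements they held, and the sequences that show this are printed here. Each is a RefSeq window of GRCm38.p6 from 250 bases before to 50 bases after an annotated gene start. It is written 5′ to 3′ on the strand of the gene, with every match to GAANNTTC or TTCNNGAA, the pairs of facing units, in capitals.
Hspa1a, chr17:34972107-34972406, minus strand: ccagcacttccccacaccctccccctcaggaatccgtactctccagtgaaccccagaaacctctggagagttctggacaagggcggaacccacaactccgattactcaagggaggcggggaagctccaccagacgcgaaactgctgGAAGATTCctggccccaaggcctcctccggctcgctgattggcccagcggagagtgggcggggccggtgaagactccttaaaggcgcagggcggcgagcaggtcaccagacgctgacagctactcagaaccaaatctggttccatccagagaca
Hspa1b, chr17:34959189-34959488, minus strand: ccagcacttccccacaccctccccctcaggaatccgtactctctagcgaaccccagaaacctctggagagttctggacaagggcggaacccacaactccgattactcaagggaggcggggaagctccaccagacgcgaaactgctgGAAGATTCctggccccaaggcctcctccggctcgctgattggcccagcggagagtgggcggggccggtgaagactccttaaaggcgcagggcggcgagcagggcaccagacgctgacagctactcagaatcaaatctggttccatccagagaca
Hspb1, chr5:135887669-135887968, plus strand: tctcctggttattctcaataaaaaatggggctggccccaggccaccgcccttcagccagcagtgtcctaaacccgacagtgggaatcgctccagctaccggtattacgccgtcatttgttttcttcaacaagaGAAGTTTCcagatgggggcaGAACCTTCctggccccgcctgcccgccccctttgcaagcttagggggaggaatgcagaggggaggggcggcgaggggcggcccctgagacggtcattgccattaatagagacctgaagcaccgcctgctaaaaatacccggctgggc
Hsph1, chr5:149636266-149636565, minus strand: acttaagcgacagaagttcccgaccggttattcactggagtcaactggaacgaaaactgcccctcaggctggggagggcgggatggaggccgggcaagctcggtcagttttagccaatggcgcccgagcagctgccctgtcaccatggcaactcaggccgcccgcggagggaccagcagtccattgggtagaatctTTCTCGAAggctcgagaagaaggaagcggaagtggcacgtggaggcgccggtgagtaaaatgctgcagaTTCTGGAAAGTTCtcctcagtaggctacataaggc
Hspe1, chr1:55087898-55088197, plus strand: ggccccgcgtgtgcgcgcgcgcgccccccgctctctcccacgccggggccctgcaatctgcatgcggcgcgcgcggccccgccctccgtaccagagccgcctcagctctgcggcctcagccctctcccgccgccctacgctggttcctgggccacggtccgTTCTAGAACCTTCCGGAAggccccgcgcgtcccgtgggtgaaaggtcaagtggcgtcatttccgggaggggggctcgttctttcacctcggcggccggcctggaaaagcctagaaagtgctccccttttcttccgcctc

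Of the 7 members with such windows, 6 held at least 1 pair of units. By window that was 7 of 10, against 15.1% of all 32851 windows of that length. The 10 windows are not independent, since some share a site or nearly match. Windows of Hspe1, Hspd1 and Hsph1 held 3 units in a row (GAANNTTCNNGAA or its reverse complement TTCNNGAANNTTC, which contain the shorter motifs). That was 4 of the 10 windows, against 198 (0.603%) of all windows. Both motifs were searched on both strands, and a match describes letters only. In Hspe1 the run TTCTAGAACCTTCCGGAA began 89 bases before the start. Hspe1 and Hspd1 are transcribed away from each other from starts 108 bases apart in the deposited annotation, so the same site, chr1:55088059-55088076, also lay in a window of Hspd1. The windows of Hspa1a and Hspa1b were the same at 296 of 300 bases. They differed by C44T, T47C, T249G and C276T, where the Hspa1a base comes first, the Hspa1b base last, and positions count from the 5′ end of the window. The 2 genes, whose starts lie 12918 bases apart on chromosome 17, are near-identical copies, so reads could be divided between them in a way the counting set. Their separate values are therefore uncertain and their sum is given beside them. In neither window of Dnajb1 were these letters found.

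The deposited matrices held 13569 control and 10925 CKO barcodes, of which 193 were the same sequence in both libraries. Median depth was 2603 and 2280 UMIs (unique molecular identifiers, 1 per captured RNA molecule). Mitochondrial transcripts made up a median of 24.2% and 16.6% of UMIs. After filters on depth, mitochondrial share and doublets, 2173 control and 3883 CKO nuclei were kept, and clusters were named from marker genes. Alveolar epithelial nuclei numbered 2051 of the control nuclei and 2327 of the CKO nuclei. Leukocytes and other non-alveolar cells, which go against the AT2 label of the sort, made up 122 and 1556 of the kept nuclei. Within the alveolar nuclei, AT2-like nuclei numbered 1509 and 1070, and transitional-like nuclei, low in surfactant RNA and scored by genes of the state between AT2 and AT1 cells, numbered 395 and 679. A cluster led by Cdh13 and Calcr, highest on the AT1 list, held 135 and 565 nuclei. Free RNA was present: the AT2 gene Sftpb stood between 837 and 2680 CPM (UMIs of a gene per 1000000 nuclear-encoded UMIs) in the CKO non-alveolar classes, beside 5421 in CKO AT2-like nuclei. The summed transitional markers were not particular to transitional-like nuclei. They stood at 2361 CPM in control and 2321 CPM in CKO transitional-like nuclei, beside 2449 and 2981 CPM in the Cdh13 cluster. Leukocyte RNA moved with the library inside the alveolar nuclei. The summed neutrophil markers stood at 1.34 CPM with 4 of 9 detected in the control, S100a8, S100a9, Retnlg, Csf3r and Mmp8 at 0, and at 122 CPM with 8 of 9 in the CKO library, Ly6g at 0. Macrophage and monocyte markers stood at 45.1 CPM (11 of 13, Fcgr1 and Ccr2 at 0) and 84.2 CPM (13 of 13), and T and NK markers at 14.3 CPM (9 of 13, Cd3e, Cd3d, Cd3g and Trac at 0) and 25.9 CPM (13 of 13). Of the alveolar nuclei, 82.1% and 51.6% held no UMI of any leukocyte marker. In the nuclei without one the alveolar ratio of Hspa1a (CKO over control, log2) was -0.32, and in AT2-like nuclei that of Hsp90aa1 was 0.02 and that of Hsph1 -0.40, each on the other side of 0 from its value below. Ptgir, the gene of the prostaglandin I2 receptor, gave 1 UMI in the kept control nuclei and 6 in the CKO nuclei, too few to check the genotype. With 1 library per genotype there is no replicate and no test. The 95% intervals below cover counting error within these libraries only, and fewer cells making an RNA cannot be told apart from less RNA per cell.

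Summed over alveolar nuclei, 8 of the 9 chaperone genes had a higher CPM in the library labelled CKO, and Dnajb1 had a lower one. All 9 passed the minimum of 100 UMIs over both libraries. The median log2 ratio of CKO over control was 0.61, beside 0.44 over all 9295 genes that passed. The rRNA-related transcript Gm42418 took 133354 CPM in control and 60705 CPM in CKO alveolar nuclei. In CPM without Gm42418 and AY036118, the median log2 ratio of the members was 0.47. Causes of the common offset over all genes were not tested. Relative to the median gene, 6 of 9 members were higher and 3 (Hspa1a, Dnajb1 and Hsp90aa1) were lower. Of the members, 1 was at least 2-fold higher and 0 were at least 2-fold lower. Over all genes, 12.3% were at least 2-fold higher and 1.86% at least 2-fold lower. The members as a list therefore stood close to the background, and the 2 that stood farthest from it were both inducible genes: Hspa1b above it and Dnajb1 below it. The sum of Hspa1a and Hspa1b, whose separate values are uncertain, stood at 0.71 (0.36 to 1.07), an interval that included the median gene.

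**Figure D1:**
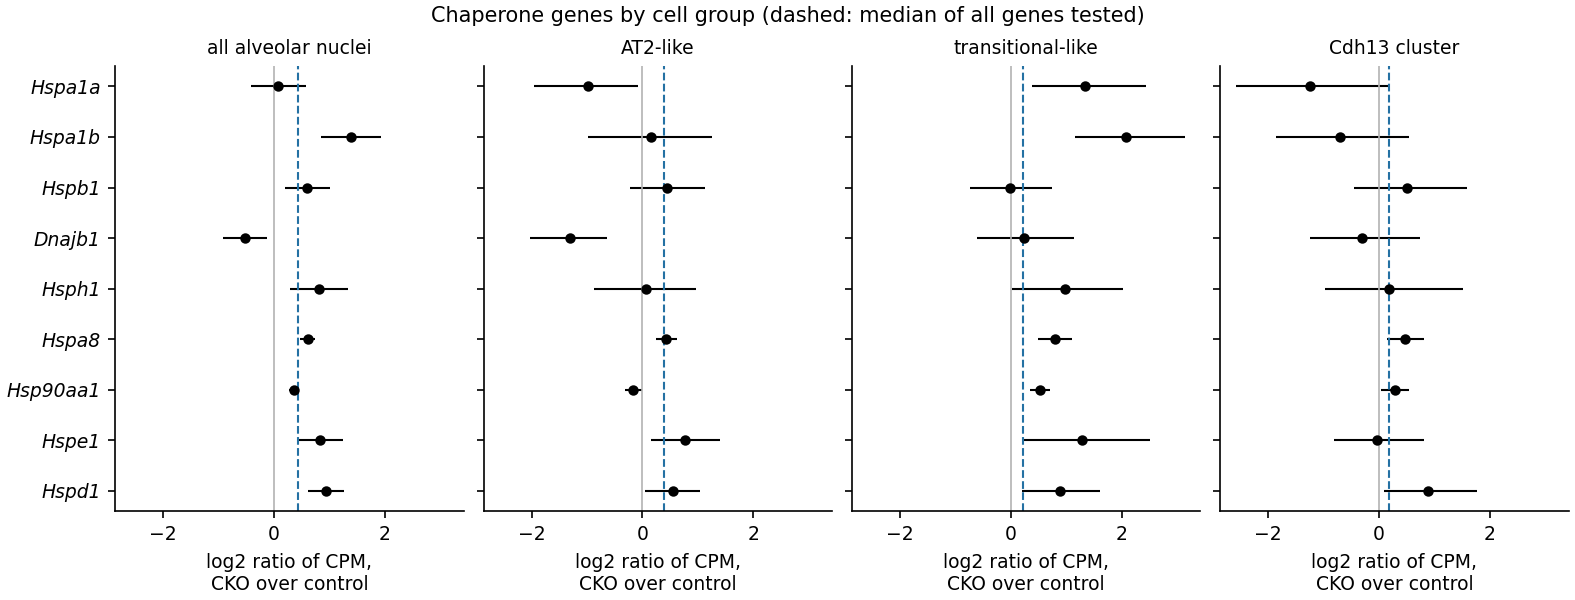
Log2 ratio of CPM (CKO over control) of each of the 9 chaperone genes in all alveolar nuclei, AT2-like nuclei, transitional-like nuclei and the Cdh13 cluster. Points are ratios of summed UMIs, bars exact 95% intervals for counting error, the grey line 0 and the dashed line the median of all genes tested in that group. In all alveolar nuclei Hspa1b (1.38) stood highest and Dnajb1 (-0.52) lowest, and Hspa1a lay at -0.98 in AT2-like and 1.35 in transitional-like nuclei.

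Among the inducible genes, Hspa1b, an Hsp70, had 40 UMIs in the control and 117 in the CKO alveolar nuclei. That was 6.71 CPM (4.80 to 9.14) and 17.5 CPM (14.5 to 21.0), a log2 ratio of 1.38 (0.85 to 1.94). Its near-identical copy Hspa1a did not share the difference, with 66 and 78 UMIs, 11.1 and 11.7 CPM, and a log2 ratio of 0.07 (-0.42 to 0.57). Summed, the pair stood at 17.8 and 29.2 CPM, a log2 ratio of 0.71 (0.36 to 1.07). Hspa1a gave 62.3% (52.3 to 71.5, exact binomial interval) of the pair's UMIs in the control nuclei and 40.0% (33.1 to 47.2) in the CKO nuclei. Dnajb1, the J protein that partners Hsp70, went the other way. It had 125 control and 98 CKO UMIs, 21.0 CPM (17.5 to 25.0) against 14.7 CPM (11.9 to 17.9), a log2 ratio of -0.52 (-0.91 to -0.12). Hsph1 had 49 and 96 UMIs and a log2 ratio of 0.80 (0.29 to 1.33). Hspb1 had 80 and 136 UMIs and a log2 ratio of 0.60 (0.19 to 1.02). Both intervals included the median gene. In nuclei with a mitochondrial share under 10%, clustered anew, the alveolar ratio of Hspa1b was 0.13, that of Hsph1 0.14 and that of Dnajb1 -1.04. That run also put the cluster of 107 control and 332 CKO nuclei led by Cd109 outside the alveolar nuclei, under a club and goblet name with transitional as the second score. With the class names kept and the same limit, the ratios were 1.65, 0.68 and -0.35.

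The ratios differed in size and sign between the alveolar groups, differences that were not tested. In AT2-like nuclei, Dnajb1 had 93 UMIs (21.9 CPM) in the control and 23 UMIs (8.87 CPM) in the CKO library, a log2 ratio of -1.31 (-2.03 to -0.64). Hspa1a had 45 control and 14 CKO UMIs there, 10.6 and 5.40 CPM, a log2 ratio of -0.98 (-1.96 to -0.08). Summed with Hspa1b, the pair had 64 and 27 UMIs, 15.1 and 10.4 CPM, a log2 ratio of -0.54 (-1.24 to 0.13), so the lower value did not hold beyond counting error for the pair. The other 3 inducible genes had ratios between 0.07 and 0.45, with intervals that included 0. Dnajb1 was thus the 1 member at least 2-fold lower in AT2-like nuclei, where 2.96% of 6730 genes were, and 0 members were at least 2-fold higher, where 11.4% of genes were. Thinned to 1000 nuclear-encoded UMIs per nucleus, the AT2-like ratio of Dnajb1 was -0.32 and the alveolar one 0.10. The AT2-like nuclei of the 2 libraries came from different clusters. In the control, 885 were in cluster 2 and 573 in cluster 3, a shallow cluster led by AY036118 and Gm42418. In the CKO library, 1042 of 1070 were in cluster 4, led by Reg3g and Bpifb1, whose second score was that of club and goblet cells. The summed club and goblet markers stood at 380 CPM in control and 1040 CPM in CKO AT2-like nuclei, with 6 of 6 detected in both. In transitional-like nuclei they stood at 169 and 538 CPM (5 of 6, Muc5b at 0 in both). Their part in the chaperone values was not tested. Cell state and library therefore cannot be told apart in this comparison.

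In transitional-like nuclei, where the median gene stood at 0.23, 3 of the 5 inducible genes had intervals above 0. Hspa1b had 11 control and 83 CKO UMIs, 11.5 CPM (5.74 to 20.6) and 48.6 CPM (38.7 to 60.3), a log2 ratio of 2.08 (1.17 to 3.14). Hspa1a had 11 and 50 UMIs, 11.5 and 29.3 CPM, a log2 ratio of 1.35 (0.39 to 2.44). Summed, the pair had 22 and 133 UMIs, 23.0 and 77.9 CPM, a log2 ratio of 1.76 (1.10 to 2.48). Hsph1 followed at 0.97 (0.02 to 2.03), an interval that included the median gene. Dnajb1 (0.24) and Hspb1 (-0.01) had intervals on both sides of 0. Of the 9 members, 3 were at least 2-fold higher in these nuclei (Hspa1a, Hspa1b and Hspe1), all on fewer than the 100 UMIs that counted toward the background of 4.78%, and 0 were at least 2-fold lower, beside 0.721%. In the Cdh13 cluster the 5 inducible genes had 8 to 13 control UMIs each. Their ratios ran from -1.24 for Hspa1a to 0.50 for Hspb1, each single interval including 0. The sum of Hspa1a and Hspa1b had 19 and 34 UMIs there, 28.0 and 14.7 CPM, a log2 ratio of -0.93 (-1.78 to -0.04), an interval that lay below 0. There 0 members were at least 2-fold higher, beside 6.45% of genes, and Hspa1a alone was at least 2-fold lower, beside 1.05%. Hspa1a had 9 and 13 UMIs, fewer than the 100 that counted toward those shares, and 3 of the 9 members had as many.

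A few nuclei held much of this signal. A single CKO transitional-like nucleus carried 52 of the 259 inducible UMIs of its class: 18 of Hspa1a, 21 of Hspa1b, 6 of Hsph1, 5 of Hspb1 and 2 of Dnajb1. It also held 62 UMIs of Hsp90aa1, 21 of Bag3, 18 of Dnaja1 and 16 of Hsp90ab1. Bag3 and Dnaja1 are co-chaperones of Hsp70 and Hsp90ab1 is the constitutive Hsp90. Its UMIs of the ER chaperone Hspa5 and of Hspe1 and Hspd1 were 0. The members made up 4.1% of its 2999 nuclear-encoded UMIs, and its mitochondrial share was 5.03%. It held 6 UMIs of AT2 markers and 2 of transitional markers, so its class is that of its cluster. In CKO transitional-like nuclei as a whole these markers summed to 5345 and 2321 CPM. The next 3 nuclei by inducible UMIs, with 12, 11 and 10, were also CKO transitional-like nuclei. All 3 carried Hspa1b and 2 of them Hspa1a, with 0 UMIs of Bag3. The 4 together held 32.8% of the inducible UMIs of the class, and 0 of the 2051 control alveolar nuclei had 10 or more. Without the nucleus with most member UMIs in each library, the transitional-like ratio of Hspa1b was 1.79 (0.81 to 2.91), and that of Hspa1a was 0.83 (-0.23 to 2.02). That of Hsph1 was 0.74 (-0.24 to 1.82), so Hspa1b alone of the inducible genes kept an interval above 0. In all alveolar nuclei Hspa1b then stood at 1.09 (0.55 to 1.66) and Hspa1a at -0.31 (-0.84 to 0.22), so Hspa1a turned direction. In transitional-like nuclei without a UMI of any leukocyte marker, the ratio of Hspa1a was -0.38 and that of Hspa1b 1.69. That choice also left out the nucleus with most inducible UMIs, which had 1 leukocyte marker UMI. For Hspa1a without a limit on the mitochondrial share the value was 0.09. The ratio of Hspa1b stayed at or above 1.21 under all 16 alternatives that gave transitional-like values.

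**Figure D2:**
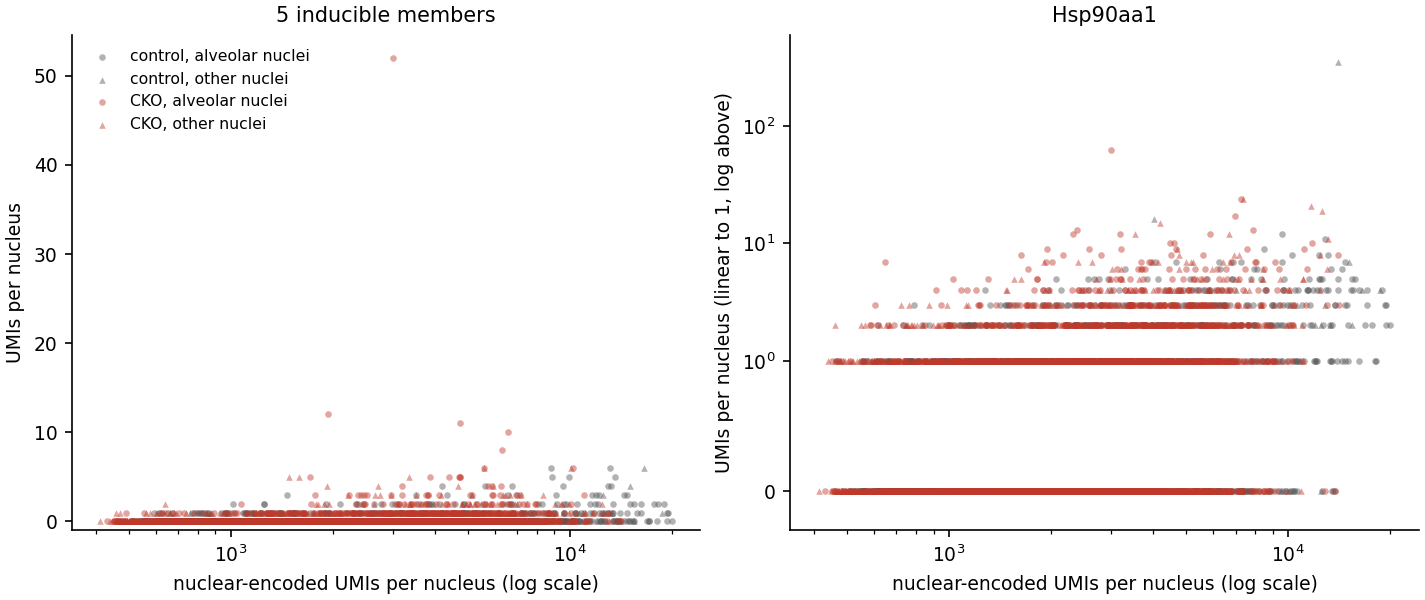
UMIs per nucleus of the 5 inducible members summed (left) and of Hsp90aa1 (right, linear to 1 and logarithmic above) against nuclear-encoded UMIs per nucleus (log scale), with circles for alveolar and triangles for other nuclei of the 2 libraries. Most nuclei lie at 0 or 1, while 1 CKO alveolar nucleus stands at 52 inducible UMIs and 1 control non-alveolar nucleus at 355 Hsp90aa1 UMIs.

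Most nuclei with a UMI of Hspa1b had a single one. Hspa1b was seen in 36 control alveolar nuclei, 33 of them with a single UMI, and in 66 CKO nuclei, 51 of them with a single UMI. In transitional-like nuclei it was seen in 11 of 395 control and 38 of 679 CKO nuclei, or 2.78% and 5.60%, at median depths of 1950 and 2078 nuclear-encoded UMIs. Thinned to 1000 such UMIs, with 59 and 90 shallower nuclei left out, 1 and 17 UMIs of Hspa1b remained, too few to order the shares. Of the alveolar nuclei, 87.4% in the control and 86.7% in the CKO library had a UMI of 0 of the 5 inducible genes. UMIs of exactly 2 of them were seen in 28 control and 37 CKO nuclei, and of all 5 in 0 and 1.

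Hspa8 and Hsp90aa1, abundant in cells without heat stress, gave many more UMIs. Hspa8, the constitutive Hsp70, had 728 control and 1243 CKO UMIs in alveolar nuclei, 122 CPM (113 to 131) and 186 CPM (176 to 196), a log2 ratio of 0.61 (0.47 to 0.74). Its ratio was positive in all 3 groups, at 0.43 in AT2-like nuclei, 0.80 in transitional-like nuclei and 0.47 in the Cdh13 cluster. The median gene stood at 0.39, 0.23 and 0.18 in the same order. It lay inside the interval of Hspa8 in AT2-like nuclei and the Cdh13 cluster, and below it in transitional-like nuclei. Against the median gene Hspa8 was 0.16 higher in all alveolar nuclei. Hsp90aa1 had 1476 and 2130 UMIs, 248 CPM (235 to 261) and 318 CPM (305 to 332), a log2 ratio of 0.36 (0.27 to 0.46), which lay 0.08 below the median gene. It split by group, at -0.16 (-0.32 to -0.0035) in AT2-like nuclei, 0.52 (0.35 to 0.70) in transitional-like nuclei and 0.29 (0.03 to 0.55) in the Cdh13 cluster. Median-of-ratios scaling, which sets the median gene to 0, put the AT2-like value at -0.55 and the transitional-like value at 0.30. The AT2-like value was above 0 under 4 of 17 alternatives, at 0.20 without a limit on the mitochondrial share. A UMI of Hspa8 was seen in 23.4% of control and 34.2% of CKO alveolar nuclei. Thinned to 1000 nuclear-encoded UMIs, with 399 and 216 shallower nuclei left out, these shares were 10.7% (9.26 to 12.3) and 15.5% (14.0 to 17.1). For Hsp90aa1 they were 38.6% and 45.3%, and 19.9% (18.0 to 21.9) and 24.5% (22.7 to 26.4) after thinning. Every class had UMIs of both genes, so no cell type gauged their share in free RNA.

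Both genes of the mitochondrial chaperonin were higher in the CKO alveolar nuclei, and by nearly the same amount. Hspd1, the chamber, had 115 and 246 UMIs, 19.3 CPM (15.9 to 23.2) and 36.8 CPM (32.3 to 41.7), a log2 ratio of 0.93 (0.61 to 1.26). Hspe1, the lid, had 74 and 147 UMIs, 12.4 CPM (9.75 to 15.6) and 22.0 CPM (18.6 to 25.8), a log2 ratio of 0.82 (0.41 to 1.25). Hspd1 was one of 3 members whose interval lay wholly above the median gene, with Hspa1b and Hspa8. The interval of Hspa1a and Hspa1b summed (0.36 to 1.07) included the median gene. By group, Hspd1 stood at 0.55 (AT2-like), 0.88 (transitional-like) and 0.88 (Cdh13 cluster). Hspe1 stood at 0.77, 1.28 and -0.03 in the same order. For both genes the interval in each group included the median gene of that group. Thinned to 1000 UMIs, the alveolar ratio of Hspd1 was 0.41.

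Hspe1 and Hspa8 also followed the mitochondrial share of UMIs in a nucleus, a mark of cytoplasmic RNA in nuclei preparations. Alveolar nuclei were binned by that share, from clusters made without a limit on it. From under 5% to between 30% and 50%, the control CPM of Hspa8 went from 76.3 to 183, and that of Hspe1 from 6.21 to 26.5. In the CKO library Hspa8 went from 138 to 252 and Hspe1 from 14.2 to 38.4. Hspd1 showed no such course, at 17.7 to 21.6 CPM in the 5 control bins and 31.1 to 40.2 CPM in the CKO bins. The summed inducible genes ran between 41.7 and 66.8 CPM in the control bins and between 50.1 and 109 CPM in the CKO bins, in no order. Hspa8, Hspe1 and Hspd1 were each higher in the CKO library in all 5 bins, though some intervals included 0. These were Hspe1 under 5% (1.19, -0.09 to 2.67) and from 20% to 30% (0.15, -0.31 to 0.59), and Hspd1 from 5% to 10% (0.79, -0.04 to 1.70). The control barcodes had the higher mitochondrial share, and the part of that share in the ratios was not tested beyond these bins. Without any limit on it the alveolar ratio was 0.34 for Hspa8 and 0.20 for Hspe1. Under a limit of 10% with the class names kept it was 0.94 and 1.46.

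**Figure D3:**
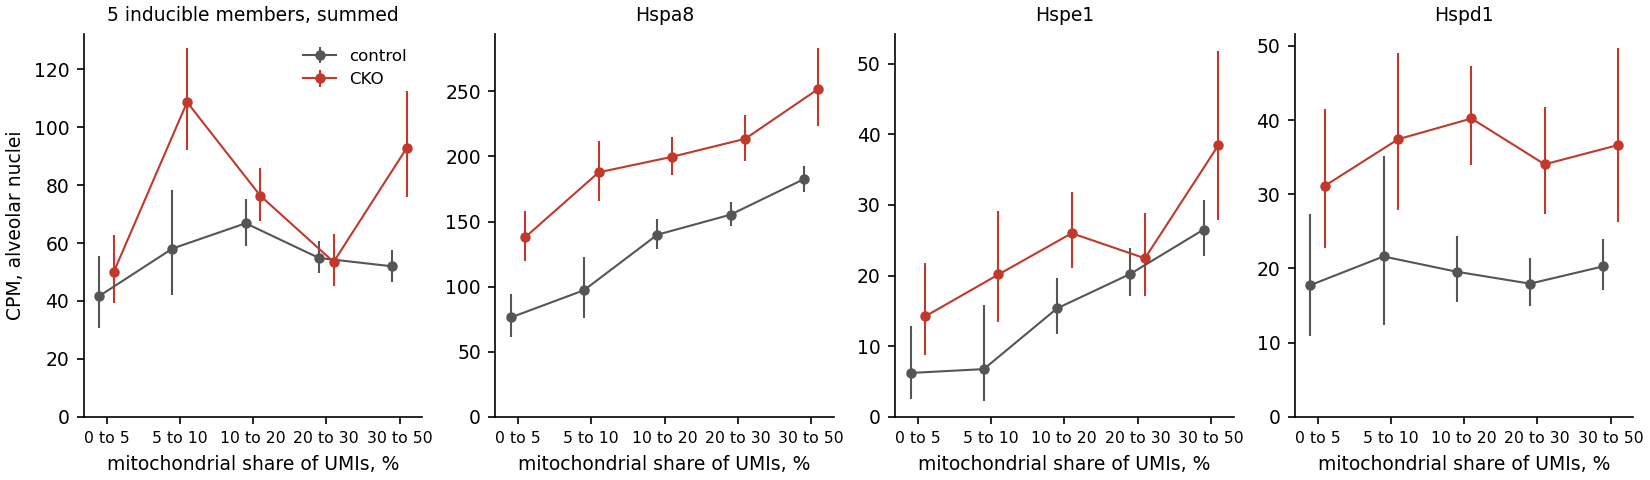
CPM in alveolar nuclei of the 5 inducible members summed, Hspa8, Hspe1 and Hspd1, by the mitochondrial share of UMIs per nucleus (5 bins, in percent) in the control (grey) and CKO (red) library, with exact 95% Poisson intervals. Hspa8 and Hspe1 climb with the share, from 76.3 to 183 CPM and from 6.21 to 26.5 CPM in the control library, while Hspd1 stays between 17.7 and 21.6 CPM.

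Among the cell groups of each library, transitional-like nuclei held more of several chaperones than AT2-like nuclei. In the CKO library all 9 members were higher in transitional-like nuclei, with a median log2 ratio of 1.33 beside 0.18 over 6290 genes. There 5 members were at least 2-fold higher, beside 7.84% of genes, and 0 at least 2-fold lower, beside 5.79%. These were Hspa1b (3.28), Hspa1a (2.44), Hsph1 (1.83), Hsp90aa1 (1.53) and Dnajb1 (1.33), of which Hsp90aa1 alone had the 100 UMIs that counted toward the background. Those of Hspa1b and Hspa1a include the nuclei described above. In the control library the median was 0.50, beside 0.23 over 5714 genes. There 2 members, Hspb1 (1.42, 0.66 to 2.16) and Hspa1b (1.36, 0.14 to 2.50), were at least 2-fold higher on fewer than 100 UMIs each, beside 10.4% of genes, and 0 at least 2-fold lower, beside 8.82%. Hsp90aa1 stood at 0.84 (0.67 to 1.02) in the control and 1.53 (1.37 to 1.69) in the CKO library. In the Cdh13 cluster its ratio over AT2-like nuclei was 0.08 (-0.17 to 0.33) in the control and 0.53 (0.36 to 0.70) in the CKO library. Of the members there, 2 were at least 2-fold higher in the control, Hspa1b (1.72) and Hspe1 (1.32) on fewer than 100 UMIs each, beside 8.4% of genes, and 0 at least 2-fold lower, beside 7.34%. In the CKO library 0 were at least 2-fold higher, beside 4.74% of genes, and 0 at least 2-fold lower, beside 2.65%.

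Across the 10 groups with at least 50 nuclei in the CKO library, AT2-like nuclei were lowest for Hsp90aa1 at 193 CPM (177 to 211), and transitional-like nuclei were highest at 559 (524 to 596). Ciliated-like nuclei (484, 414 to 562) came next, and their interval overlapped that of transitional-like nuclei. Then came neutrophil-like nuclei (436, 391 to 485) and macrophage and monocyte-like nuclei (354, 319 to 391). The 5 other groups lay between 280 and 307 CPM with overlapping intervals. For Hspa8 the order was different: macrophage and monocyte-like nuclei led at 333 CPM (299 to 370). Neutrophil-like (258), T and NK-like (238) and transitional-like nuclei (214) followed with overlapping neighbours, and AT2-like nuclei stood at 162 (147 to 178). Hspb1 was highest in fibroblast-like nuclei at 74.1 CPM (45.3 to 114) on 20 UMIs, next to 31.3 in endothelial-like nuclei, whose interval overlapped. Hsph1 was highest in ciliated-like nuclei at 53.4 CPM (32.2 to 83.4) on 19 UMIs, beside 24.6 (17.7 to 33.3) in transitional-like nuclei. Hspa1a and Hspa1b were highest in transitional-like nuclei, followed by macrophage and monocyte-like nuclei at 22.7 CPM (14.5 to 33.8) for each. The intervals of these neighbours overlapped for Hspa1a and did not for Hspa1b (38.7 to 60.3 in transitional-like nuclei). Without the transitional-like nucleus with most member UMIs, Hspa1a stood at 18.8 CPM (12.9 to 26.5), below the macrophage and monocyte-like value, and Hspa1b at 36.4 CPM (27.9 to 46.7), which overlapped it. Hspd1 ran from 17.4 to 61.3 CPM and Hspe1 from 18.1 to 37.0 CPM, with wide intervals. Those of Hspe1 overlapped, while that of Hspd1 in AT2-like nuclei, which ended at 32.8, lay below those in transitional-like (36.7 to 57.7) and T and NK-like nuclei (34.4 to 66.1). Dnajb1 ran from 7.67 to 25.9 CPM.

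In the control library 4 groups reached 50 nuclei. T and NK-like nuclei there, 57 of them, had 270 CPM (182 to 385) of Hspa8 and 315 CPM (219 to 437) of Hsp90aa1, close to the CKO values of 238 and 294. The 31 control macrophage and monocyte-like nuclei had 400 UMIs of Hsp90aa1, or 2295 CPM. A single nucleus held 355 of these UMIs among 14035, with 0 UMIs of the 5 inducible genes and 3 of Hspa8. Without it the 30 others stood at 281 CPM (205 to 376), beside 354 CPM in the CKO library.

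**Figure D4:**
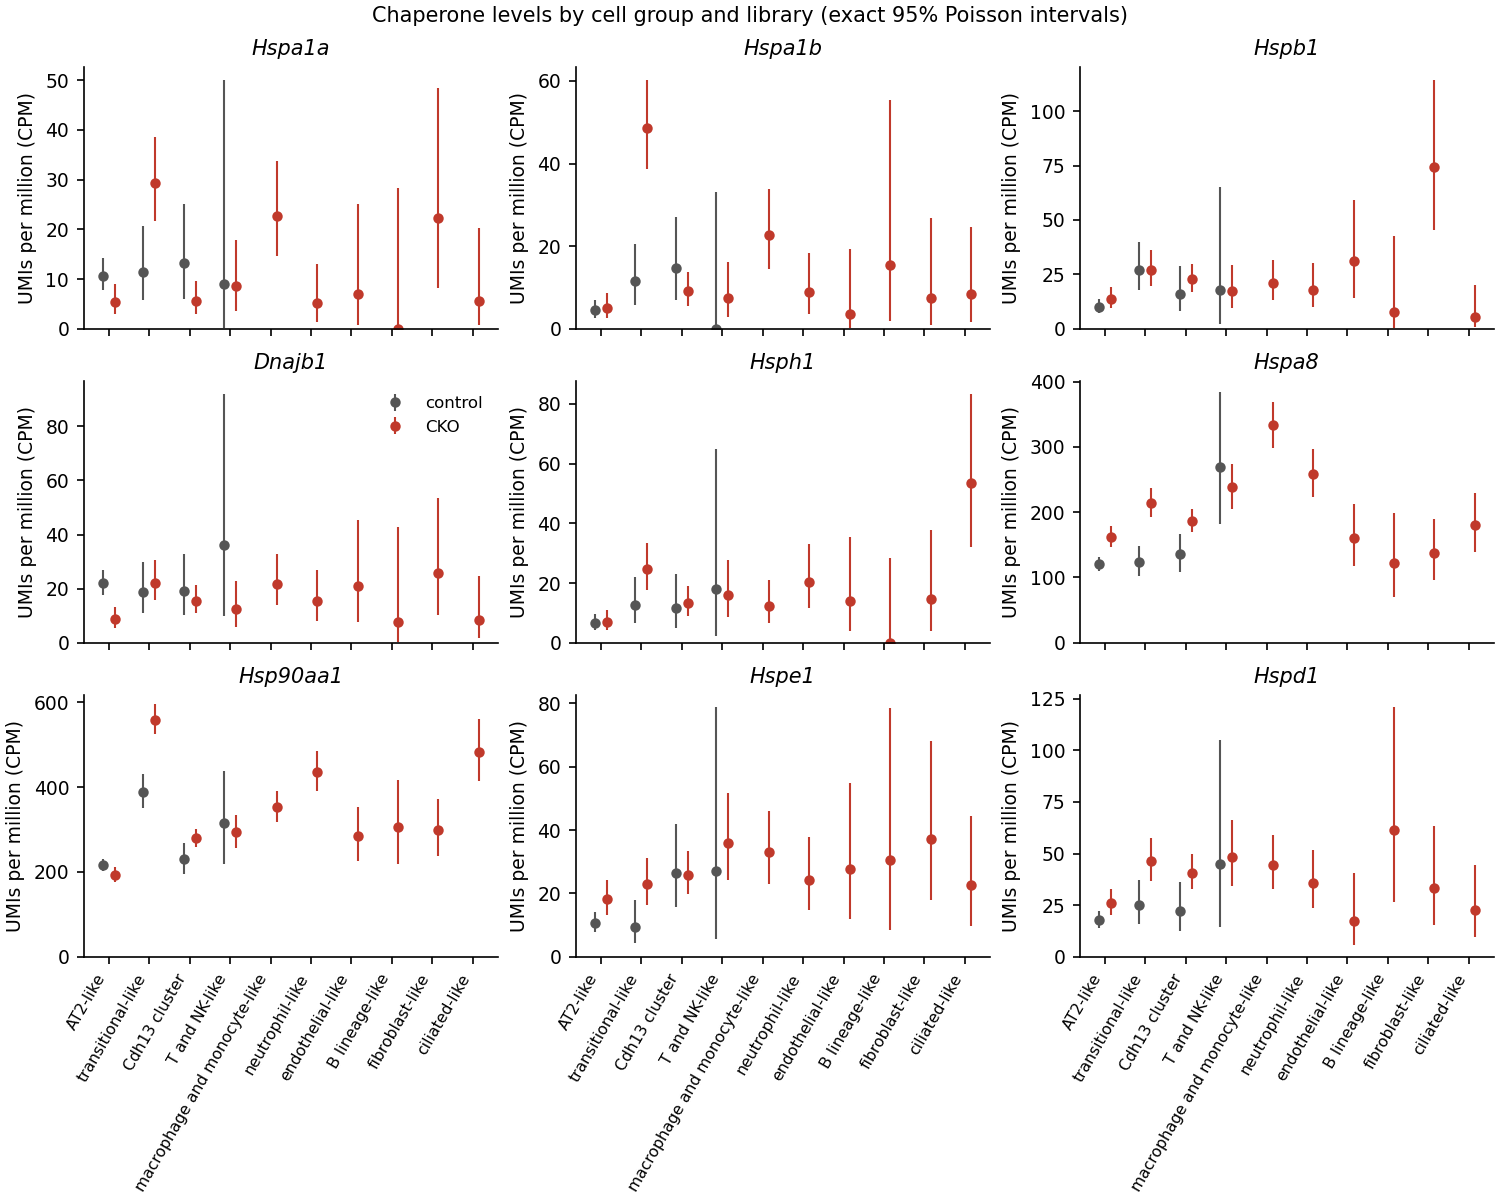
CPM of each chaperone gene in the cell groups with at least 50 nuclei, for the control (grey) and CKO (red) library, with exact 95% Poisson intervals that cover counting error only. Transitional-like CKO nuclei stand highest for Hspa1b at 48.6 CPM and for Hsp90aa1 at 559 CPM, while AT2-like CKO nuclei stand lowest for Hsp90aa1 at 193 CPM.

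The wider folding machinery was followed through 10 lists, in alveolar nuclei and among genes with at least 50 UMIs over both libraries. Of 11200 such genes, 14.6% were at least 2-fold higher and 2.27% at least 2-fold lower in the CKO library, and their median was 0.46. Of 8 heat shock factors and regulators, 0 were at least 2-fold higher and 1 at least 2-fold lower, with a median of 0.41. Hsf1, the master factor, stood at 0.68 (0.39 to 0.98) and Hsf2 at 0.60 (0.27 to 0.94). Hsf4 was the lowest at -1.09 (-1.51 to -0.67), then Ier5, an activator of Hsf1, at -0.51 (-0.71 to -0.31). Hsbp1, which binds and restrains Hsf1, stood at 0.73 and Hikeshi, the nuclear importer of Hsp70, at 0.75. The interval of Hsf1 included the median gene, while that of its target Dnajb1 lay below it.

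Partners of Hsp90 and the cytosolic chaperonin stood above the median gene. Of 13 genes of Hsp90 and its co-chaperones, 4 were at least 2-fold higher and 0 lower, with a median of 0.64. Fkbp5, which is also a glucocorticoid-induced gene, was highest at 2.55 (2.29 to 2.82), then Ahsa1, the activator of the Hsp90 ATPase, at 1.35. Stip1, which links Hsp70 to Hsp90, stood at 0.44 and Ptges3 (p23) was lowest at -0.18. Hsp90ab1, the constitutive Hsp90, stood at 0.73 (0.60 to 0.86). Of 13 genes of the TRiC chaperonin and its helper prefoldin, 5 were at least 2-fold higher and 0 lower, with a median of 0.89, and 11 had intervals wholly above the median gene. Pfdn4 (1.24) and Vbp1 (1.23) were highest, Pfdn2 (0.0042) and Cct4 (0.71) lowest. Cct6a was not analysed here. Of 10 genes of mitochondrial Hsp70 and proteases, 2 were at least 2-fold higher and 0 lower, with a median of 0.59. Hspa9, the mitochondrial Hsp70, stood at 0.58 (0.41 to 0.75), its exchange factor Grpel1 at 1.02, the protease Htra2 at 1.26, Dnaja3 at 0.13 and Clpb at -0.25.

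Partners of Hsp70 stood on both sides of the median gene. Of 10 exchange factors and co-chaperones of Hsp70, 1 was at least 2-fold higher and 0 lower, with a median of 0.55. Intervals lay wholly above the median gene for 4 of them and wholly below it for 4. Bag4 (1.22) and the ubiquitin ligase Stub1 (0.96) were highest, and the polyubiquitin gene Ubb was lowest at -0.46. Bag3, which couples Hsp70 to autophagy and is itself an Hsf1 target, stood at -0.29 (-0.47 to -0.11). Of 11 J proteins, 1 was at least 2-fold higher and 0 lower, with a median of 0.31. Dnajc2 (1.56) and Dnajc7 (0.71) were highest, Dnajb4 (-0.67) and Dnaja1 (-0.19) lowest. The 4 measured genes on the list of cytosolic Hsp70 and Hsp110 genes had a median of 0.20, and none was 2-fold apart. They ran from Hspa4l (-0.59) and Hspa4 (0.11) to Hspa13 (0.29) and Hspa14 (0.34). Of 3 measured genes on the list of small heat shock proteins, Cryab stood at 1.28 (0.99 to 1.57), Hspb11 at 0.61 and Hspb8 at -0.13. Of 14 ER chaperones, 2 were at least 2-fold higher and 0 lower, with a median of 0.43. Hspa5 (BiP), the Hsp70 of the ER, stood at -0.37 (-0.46 to -0.27) and Dnajb9 was lowest at -0.71, while Dnajb11 (1.15) and Creld2 (1.01) were highest.

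The immediate early genes, a class induced rapidly by many stimuli without new protein synthesis, were mostly lower in the CKO library. Of 18, 7 were at least 2-fold lower in CKO alveolar nuclei and 0 at least 2-fold higher, with a median of -0.83. Egr1 (-2.94, -3.09 to -2.80) and Fosb (-1.53) were lowest, Socs3 (0.92) and Dusp1 (0.70) highest. In AT2-like nuclei Egr1 stood at -2.54, Ier5 at -1.24 and Dnajb1 at -1.31. In transitional-like nuclei Egr1 was at -2.21, while Ier5 was at 0.11 and Dnajb1 at 0.24. Fos (0.46), Dusp1 (0.80) and Socs3 (1.02) stood above 0 in AT2-like nuclei, where Dnajb1 was low. Their part in the chaperone values was not tested.

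Every member had an open chromatin peak over its gene start in both libraries. Within 10 kb of the 9 starts the authors' peak lists held 26 control and 29 CKO peaks, and 25 regions were covered in both. Values are counts per 1000000 counts in all regions shared in this way, also written CPM. The 8 regions at gene starts (Hspe1 and Hspd1 share one) had a median log2 ratio of -0.15. All 16393 shared regions within 1000 bases of a gene start had a median of -0.09, 2.26% of them at least 2-fold higher and 1.30% at least 2-fold lower. Of the 8, 0 passed 2-fold in either direction. Hspa8, at chr9:40800618-40801570, had 1414 control and 1177 CKO counts, a log2 ratio of -0.52 (-0.63 to -0.41). The shared start of Hspe1 and Hspd1, at chr1:55087583-55088511, had 988 and 852 counts and a ratio of -0.47 (-0.60 to -0.33). Against 0, the start region of these genes was lower and the RNA higher in the CKO library. The median gene stood at 0.44 for RNA, inside the interval of Hspe1, and the median start region at -0.09. Dnajb1 (chr8:83607703-83608568) had 1043 and 1069 counts and a ratio of -0.22 (-0.34 to -0.09), lower like its RNA. The region of Hspa1a (chr17:34971881-34972816, which also covers the start of Hspa1l) had 397 and 400 counts and a ratio of -0.24 (-0.45 to -0.04). Those of Hspa1b (0.15), Hspb1 (-0.06), Hsph1 (-0.08) and Hsp90aa1 (0.13) had intervals that included 0. Of the 10 windows searched for heat shock elements, 9 lay wholly inside these regions, the site shared by Hspe1 and Hspd1 included.

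By cell group, the start region of Hspa1b was the 1 of 8 with an interval above 0 in transitional-like nuclei, where its RNA was also higher. It had 40 control and 124 CKO counts there, or 26.9 and 44.5 CPM, a log2 ratio of 0.72 (0.20 to 1.28). Counts at the starts of Hspa1a and Hspa1b, whose sequences nearly match, share the uncertainty of the RNA, and summed they were 115 and 250, a ratio of 0.21 (-0.11 to 0.54). In AT2-like nuclei the start region of Hspa1b had 230 and 168 counts and a ratio of -0.06 (-0.36 to 0.23). The nucleus with the most inducible UMIs gave 1 of the 124 counts, and without it the ratio was 0.71 (0.19 to 1.27). The region of the copy Hspa1a had 75 and 126 counts in transitional-like nuclei, a ratio of -0.16 (-0.58 to 0.27). In AT2-like nuclei it had 286 and 166 counts, a ratio of -0.39 (-0.68 to -0.11), and the region of Dnajb1 had 787 and 491 counts, a ratio of -0.29 (-0.46 to -0.13). The RNA of both genes was lower in those nuclei too. The pair's start regions summed to 516 and 334 counts there, a ratio of -0.24 (-0.44 to -0.04), and to 51 and 194 in the Cdh13 cluster, a ratio of -0.04 (-0.50 to 0.43). Hspa8 was lower in all 3 groups, at -0.55 (AT2-like), -0.47 (transitional-like) and -0.46 (Cdh13 cluster). So was the shared start of Hspe1 and Hspd1, at -0.40, -0.64 and -0.55. The median of start regions in these groups lay between -0.12 and -0.08.

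Away from the starts, 17 shared regions had a median log2 ratio of 0.23 and counts of 15 to 381 in a library. One was at least 2-fold higher, with 25 control and 65 CKO counts, at chr17:34980314-34981024 (1.13, 0.44 to 1.85) and centred at -8512.5 bases from the Hspa1a start, negative meaning upstream. A region at -6839 bases from the Hsp90aa1 start, at chr12:110702771-110703698, had 99 and 194 counts and a ratio of 0.72 (0.36 to 1.08). Of all 69326 shared regions, 10.2% were at least 2-fold higher and 1.58% at least 2-fold lower, with a median of 0.16. Peaks in 1 library's list only were weak, with 10 to 29 alveolar counts in the 4 CKO ones and 51 in the control one, beyond the end of Hsp90aa1.

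**Figure D5:**
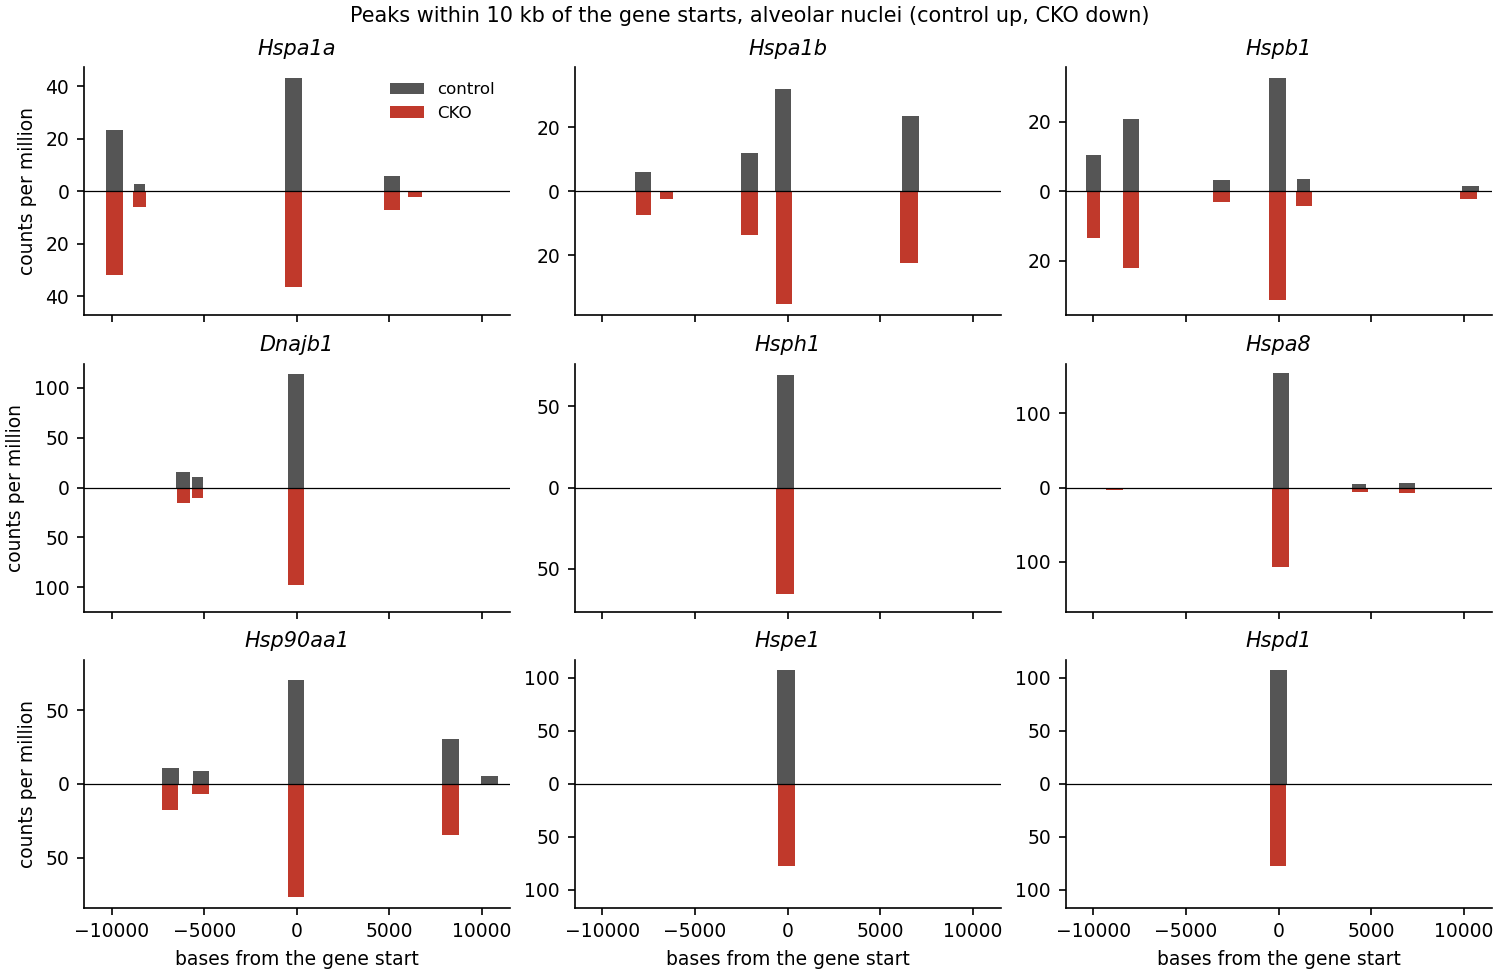
Peaks within 10 kb of each gene start in alveolar nuclei, placed by the distance of the peak centre from the start along the gene (bases) and drawn at their width. Bars upward are counts per 1000000 in the control library and bars downward in the CKO library, each with its own axis per gene. In both libraries the start peak is the tallest for every gene, at 154 and 108 CPM for Hspa8 and 108 and 77.9 for Hspe1 and Hspd1.

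The genes whose level followed the inducible chaperones most closely over the 14 group-by-library points were Rnd3 (Pearson r = 0.90), Golga3 (0.81), Anxa7 (0.76), Dync1h1 (0.76) and Gpat4 (0.76), among 5292 genes ranked by log2(CPM + 10). These are descriptions, since the points share library, depth and free RNA. Rnd3 had 16.04 and 6.94 CPM in control and CKO AT2-like nuclei, 100.4 and 92.6 CPM in transitional-like nuclei, and 152 CPM in CKO fibroblast-like nuclei. Among the members outside the inducible group, Hsp90aa1 followed that profile at 0.51, Hspa8 at 0.31, Hspe1 at 0.17 and Hspd1 at 0.055.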

How the data were processed

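The authors deposited, per library, a joint matrix of whole-number counts (UMIs for genes, transposition counts for peaks) made with Cell Ranger ARC 2.0.1, per the file headers. The submitters' processing notes also name Seurat 4.1.0 and Signac 1.6.0. Coordinates equal GRCm38 gene starts and peaks were called per library. The other values used, the coordinates in the deposited feature lists, are not measurements. The members and gene lists were chosen with earlier results of these data known.

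Barcodes were kept with UMIs from 500 to 25000, a minimum of 300 genes, peak counts from 1000 to 100000 and under 20% mitochondrial UMIs, which left 2173 and 3883. Of all barcodes, 8407 control and 4365 CKO were at or over that mitochondrial limit, and 5198 and 3495 were under the peak minimum. Scrublet removed 12 and 0 doublets, so doublets in the CKO library were in effect not removed. Leiden clusters (scanpy 1.11.5, 2000 variable genes, 30 components, 15 neighbours, resolution 0.6) were made without the members, pathway or mitochondrial genes. They were named from 17 marker lists by the mean log2(CPM + 10) above the median cluster (at least 0.3, 3 markers), a score revised after clusters were seen. The cluster highest on the AT1 list had no AT1 marker among its leading genes and is called by its leading gene. The transitional-like cluster also had no marker of its list among its leading genes, and its name rests on its score of 0.84. On the transitional list the Cdh13 cluster scored 0.99.

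UMIs were summed per group and library as CPM of nuclear-encoded UMIs. Poisson and conditional binomial 95% intervals are exact and cover counting error only. A gene counts toward a background with at least 100 UMIs (50 for pathway lists), a region with at least 50 counts. Named genes were the 9 members, Hsf1, Hsf2, Hspa5, Hsp90ab1, Bag3, Hspa9 and the 2 highest and 2 lowest of each list (1 of these is not reported here), and single nuclei, Hspb11 and peaks were described after their values were seen. Of the alternatives tried, 23 were planned and 3 (without the nucleus with most member UMIs in each library, without the shallow AT2-like cluster, and a mitochondrial limit of 10% with the class names kept) were chosen after seeing the data. The interval code was tested on simulated data. Of the gene names, 25200 of 31053 matched RefSeq.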

Additional observations from a re-analysis of the deposited data

Results flagged for a closer look

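Hspa1a differed between alveolar groups under the same comparison of libraries: its log2 ratio of CKO over control was 1.35 in transitional-like nuclei and -0.98 in AT2-like nuclei, with intervals on opposite sides of 0. For the sum of Hspa1a and its near-identical copy Hspa1b this did not hold, since the AT2-like ratio was -0.54 with an interval (-1.24 to 0.13) that included 0, beside 1.76 (1.10 to 2.48) in transitional-like nuclei. Hsp90aa1 did the same, at 0.52 in transitional-like nuclei and 0.29 in the Cdh13 cluster against -0.16 in AT2-like nuclei. With 1 library per genotype the differences between groups were not tested. Without the CKO nucleus with most member UMIs, and its counterpart in the control, the transitional-like ratio was 0.83 for Hspa1a and 0.44 for Hsp90aa1.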

How the results depend on the processing

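The median log2 ratio of the 9 chaperone genes in alveolar nuclei, 0.61 as reported, was positive under all 18 alternatives, from 0.14 to 0.82. It moved most without a limit on the mitochondrial share (0.40), under a limit of 10% (0.14, or 0.82 with the class names kept, since clustering anew also moved a transitional cluster out of the alveolar nuclei), with median-of-ratios scaling (0.16), in CPM without Gm42418 and AY036118 (0.47) and with control nuclei weighted to the CKO class makeup (0.42). The other causes were not tested. The count of members at least 2-fold higher, 1 as reported, was 2 without the mitochondrial limit, 3 without any filter on nuclei, 2 with at least 1000 UMIs, 2 with equal weight per nucleus, 3 under a limit of 10% with the class names kept, and 6 at 1.5-fold. It was 0 with nuclei classed without clusters, with median-of-ratios scaling and with weighted control nuclei. The share of all genes under each of these settings is not given here, so these counts have no background beside them. Of the 6 members at 1.5-fold the lowest, Hspb1 (0.60), stood above 62.4% of all genes tested. The count at least 2-fold lower was 0, and 1 (Dnajb1, -1.04) under the limit of 10% clustered anew, where Dnajb1 stood at -0.35 with the class names kept. The share of all genes at least 2-fold higher was 12.3%, and 6.11% among genes with at least 500 UMIs. The share lower was 1.86%, and 3.07% with at least 20 UMIs.

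The summed counts of the 25 shared regions near the members had a log2 ratio of -0.12. It was -0.044 per alveolar nucleus, -0.22 within 2 kb and -0.047 without the mitochondrial limit. Hspa1a in transitional-like nuclei turned from 1.35 to -0.38 in nuclei without leukocyte marker UMIs, which also leaves out the nucleus with most inducible UMIs. In AT2-like nuclei Dnajb1 stayed negative under all 17 alternatives, from -1.70 to -0.32. In all alveolar nuclei it turned to 0.10 after thinning to 1000 UMIs. No paired analysis was possible because each genotype had 1 library. Depth limits the inducible genes, which had 8 to 125 UMIs per alveolar group in the control library.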
